A study of Homo sapiens with 12 samples.

Results

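NRF2 is the transcription factor that cells use to answer oxidants and electrophiles. Its inhibitor KEAP1 holds it in the cytoplasm and delivers it to a ubiquitin ligase, and when reactive molecules modify KEAP1, NRF2 enters the nucleus, pairs with a small MAF protein and binds antioxidant response elements near its target genes, where BACH1 competes with it. Astrocytes are a well-known site of NRF2 activity in the brain and export glutathione precursors to their neighbours, which makes the pathway of interest in tumour cells fed with astrocyte medium. The genes described here are 9 targets of NRF2, namely HMOX1, NQO1, OSGIN1, GCLC, GCLM, SRXN1, TXN, TXNRD1 and ME1, out of 25270 genes tested. They were chosen by name, through the RefSeq accession of their probes. Each was measured by 1 probe, and all 9 were well above background on all 12 arrays.

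Daoy is an established human medulloblastoma (MB) line. The cells were grown in medium collected from cultured astrocytes of the hippocampi of newborn Sprague Dawley rats (ACM) or in full DMEM with fetal bovine serum, through 1 passage (P1) or 3 (P3), each lasting 48 h, and every combination of medium and passage had 3 arrays. All 4 groups are therefore the same untreated, unmodified line, and by their labels P1 ACM, P3 ACM, P1 DMEM and P3 DMEM differ in medium and passage, while on the arrays they also differ in slide, as described next. The medium held rat products but no rat cells. The labels speak of independent experiments without naming a culture. A limma p-value here therefore sets a difference against the spread between arrays within groups, pooled over the 4 groups.

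The 12 arrays were spread over 3 slides in such a way that no slide carried both media at one passage. The P1 ACM group and P3 ACM replicate 1 were on slide 1. Slide 2 carried P1 DMEM replicates 1 and 2 beside P3 ACM replicates 2 and 3, and the P3 DMEM group was on slide 3 beside P1 DMEM replicate 3. The scanner software called fewer probes well above background on slide 2 (74.2% to 80.2%) than elsewhere (88.1% to 94.6%). The median intensity of an array was 265.3 to 606.5, and no spot was saturated (0). A second deposited table of log2 values carries other sample labels: 0 of its 12 columns put the probes in the order of the array that bears its label. Its columns had Spearman correlations across probes of 0.953 to 0.992 with the array of their own label and near 1 with that of another. The labels of the scanner output are used below, and values under the labels of the table are given beside the results. Which labels are right was not tested. Of 6 genes listed as markers of Daoy, vimentin had a level of 6.36 to 7.45 on the 12 arrays. On P1 DMEM replicate 3, which is described below as standing out, NES, SOX2, ZIC1, GLI2 and PTCH1 stood at −2.36, −3.56, −4.96, −1.57 and −1.20. Their means on the other 2 P1 DMEM arrays were −2.21, −2.36, −5.29, −1.83 and −0.69. None of these genes exceeded −0.10 on another array, and ZIC1 and PTCH1 were well above background on 11 of the 12. The summed level of 8 astrocyte markers lay between 2.08 and 2.57 in P1 ACM and between 2.42 and 2.64 in P1 DMEM, and at P3 between 1.87 and 2.62 in ACM and between 2.11 and 2.40 in DMEM. That of 5 oligodendrocyte markers was 0.58 to 0.86 in P1 ACM against 0.17 to 0.27 in P1 DMEM, and 0.19 to 0.89 against −0.17 to 0.20 at P3. For 6 microglia markers it was 4.07 to 4.60 against 3.62 to 4.15 at P1, and 3.84 to 4.45 in P3 ACM against 3.31 to 3.60 in P3 DMEM. Each sum adds intensities, so the brightest probe of a list weighs most in it. On P1 DMEM replicate 3 these were GJA1 at 1.65 (astrocyte), MOG at −0.26 (oligodendrocyte) and ITGAM at 3.53 (microglia). The astrocyte marker GFAP and the microglia marker AIF1 had no kept probe. The part of these markers in the results was not tested. A level is the log2 intensity relative to the array's own 75th percentile, which is 0, and the level of one probe cannot be set against that of another. RNA was taken from whole cultures, in which fewer cells with a transcript and less of it per cell cannot be told apart.

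The core of the antioxidant response element, TGACNNNGC on either strand, was looked for in the RefSeq promoters of GRCh38.p14, which run from 250 bases before a gene's start to 50 after it. The promoter of HMOX1 was not analysed here. Of the 9 promoters of the other 8 genes, 4 promoters of 3 genes held the core, against 13.3% of all 35116 promoters. These are printed because they are the nearest thing in the members' own sequence to the site by which NRF2 is known to act, with 10 bases on each side and the core in capitals, 1 match for each promoter. A second match in the first promoter of TXNRD1, 8 bases before the start, and a second one in that of ME1, just after the start, are not printed. They are a description of letters, and no match in the windows of NQO1, GCLC, TXN, SRXN1 and OSGIN1 says only that these letters are not there.
GCLM, chr1:93909446-93909474, minus strand, 34 bases before the start: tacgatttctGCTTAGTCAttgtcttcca
TXNRD1, chr12:104215670-104215698, plus strand, 99 bases before the first start: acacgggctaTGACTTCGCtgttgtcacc
TXNRD1, chr12:104286920-104286948, plus strand, 102 bases before the second start: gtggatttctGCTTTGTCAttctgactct
ME1, chr6:83431170-83431198, minus strand, 137 bases before the start: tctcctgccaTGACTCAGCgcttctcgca
The core in GCLM and in the second promoter of TXNRD1 lies on the opposite strand to the gene. The ME1 core printed overlaps TGACTCA, the site that AP-1 factors are also known to bind, while the others do not hold it.

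**Figure D1:**
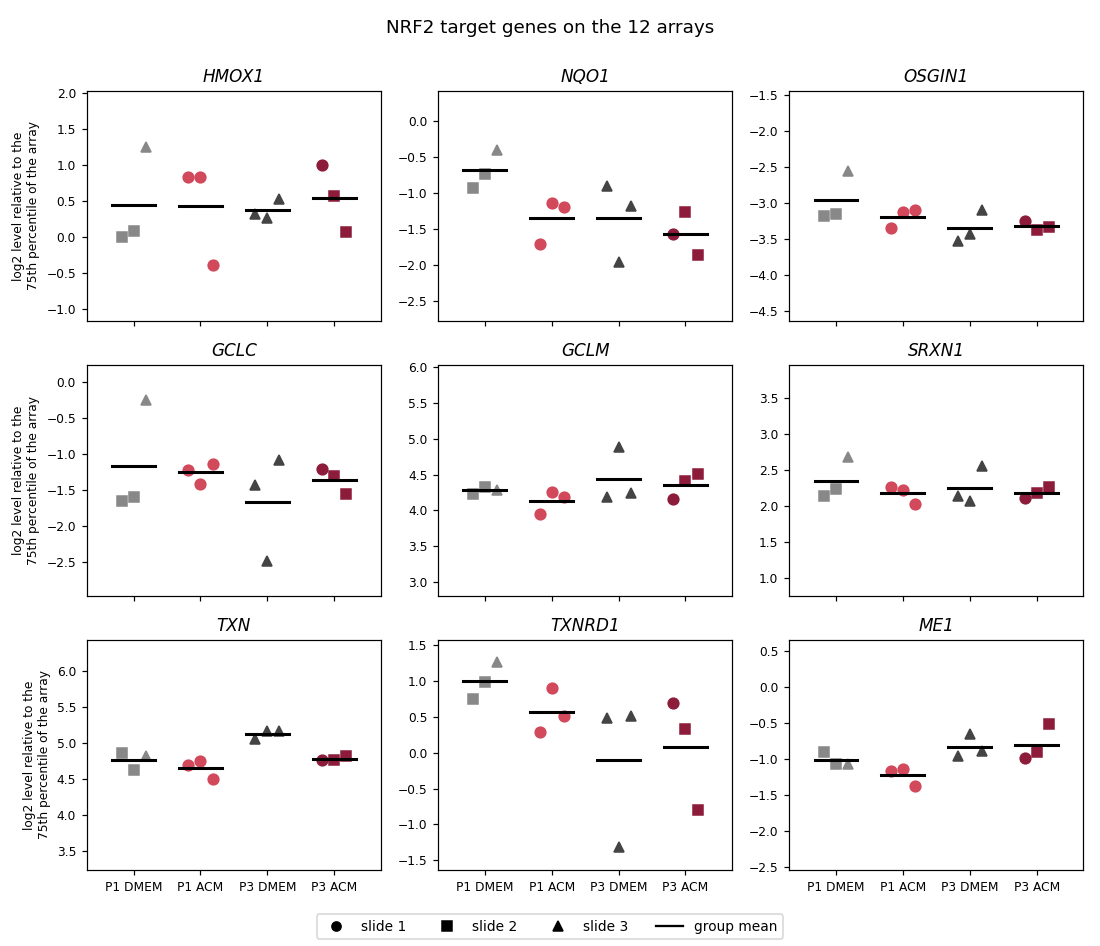
The level of each of the 9 genes on the 12 arrays, as log2 over the array's 75th percentile, with a bar at the mean of each group of 3 and the symbol giving the slide; each panel spans 3.2 log2 units. The ACM and DMEM points of most genes lie among each other, and P1 DMEM replicate 3 (light grey triangle) is the highest of the 12 points for 6 of the 9 genes.

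At P1, none of the 9 genes rose or fell past the thresholds of the study, which are a change of over 2-fold and, in limma, an unadjusted p of 0.05 or less (0 of 9 against 13.6% of all genes). By the unadjusted p alone 1 of 9 fell, NQO1 (24.0% of all genes changed by that measure, and 0.910% fell), and none had an adjusted p of 0.05 or less (0, as over all genes, 0.00%). All 9 were lower in ACM in sign, against 36.1% of all genes, with a median of −0.18 against 0.15 over all genes. Among the 20114 genes well above background on all arrays, as the members are, 43.8% were lower, with a median of 0.048. Of these 20114 genes, 876 rose and 25 fell past the thresholds. The methods' t-test also put 0 of 9 past the thresholds. In 2 genes, NQO1 and ME1, the 3 ACM arrays lay below the 3 DMEM arrays (36.1% of all genes did not overlap in either direction, 5.39% in this one). The distance of the members from the median of all genes changed with the scaling, since that median was 0.00059 after quantile normalization, where 8 of 9 were lower and 49.9% of genes were. The count of 9 lower became 7 without P1 DMEM replicate 3 (34.9% of all genes), 6 under the labels of the table (median of all genes 0.00028) and 5 with slide as a block (54.0%), the last a share near that of all genes.

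HMOX1 (chromosome 22, 35381096 to 35394207) codes for haem oxygenase 1, which breaks down haem to biliverdin, iron and carbon monoxide. At P1 it stood at 0.84, 0.84 and −0.39 in ACM and at 0.0044, 0.09 and 1.26 in DMEM. Each medium had 1 array far from the others, low in ACM and high in DMEM, and the ranges of the groups overlapped. The difference was −0.02 (95% interval −0.92 to 0.88, limma adjusted p = 0.989), so that neither a rise nor a fall of nearly 2-fold lies outside the interval. At P3 it stood at 1.01, 0.57 and 0.065 in ACM and at 0.32, 0.27 and 0.53 in DMEM, a difference of 0.18 (−0.73 to 1.08, adjusted p = 0.920). Under the labels of the table the P1 difference was −0.82 with an unadjusted limma p of 0.0336, and without P1 DMEM replicate 3 it was 0.38.

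NQO1 (chromosome 16, 69709401 to 69726560) codes for the quinone reductase that is the usual marker of NRF2 activity. At P1 it stood at −1.72, −1.15 and −1.19 in ACM and at −0.93, −0.73 and −0.40 in DMEM. Every ACM array lay below every DMEM array, by 1.59-fold on average, a difference of −0.66 (95% interval −1.30 to −0.03, unadjusted limma p of 0.0419, adjusted p = 0.198). At P3 the levels were −1.58, −1.27 and −1.86 in ACM and −0.91, −1.96 and −1.18 in DMEM, where 1 DMEM array was the lowest of the 6 and the difference was −0.22 (adjusted p = 0.853). The P1 difference did not keep its unadjusted p with the replicate number as a block (−0.66, unadjusted p of 0.0630), which pairs arrays of the same number, and it was −0.13 under the labels of the table. With slide as a block it was −0.51.

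OSGIN1 (chromosome 16, 83953240 to 83966332), an oxidative stress-induced growth inhibitor, stood at −3.35, −3.12 and −3.09 in P1 ACM and at −3.18, −3.15 and −2.55 in P1 DMEM. The difference was −0.23 (95% interval −0.67 to 0.21, limma adjusted p = 0.589), and −0.02 without P1 DMEM replicate 3. At P3 it was 0.03, with all 6 arrays between −3.52 and −3.09. The choice of normalization moved OSGIN1 more than any other member at P1, since after quantile normalization the P1 difference was −0.61 at an unadjusted limma p of 0.00760. On that scale all 3 ACM arrays, from 0.35 to 0.19 below the gene's mean over the 12 arrays, lay under all 3 DMEM arrays, from 0.15 to 0.65 above it.

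**Figure D2:**
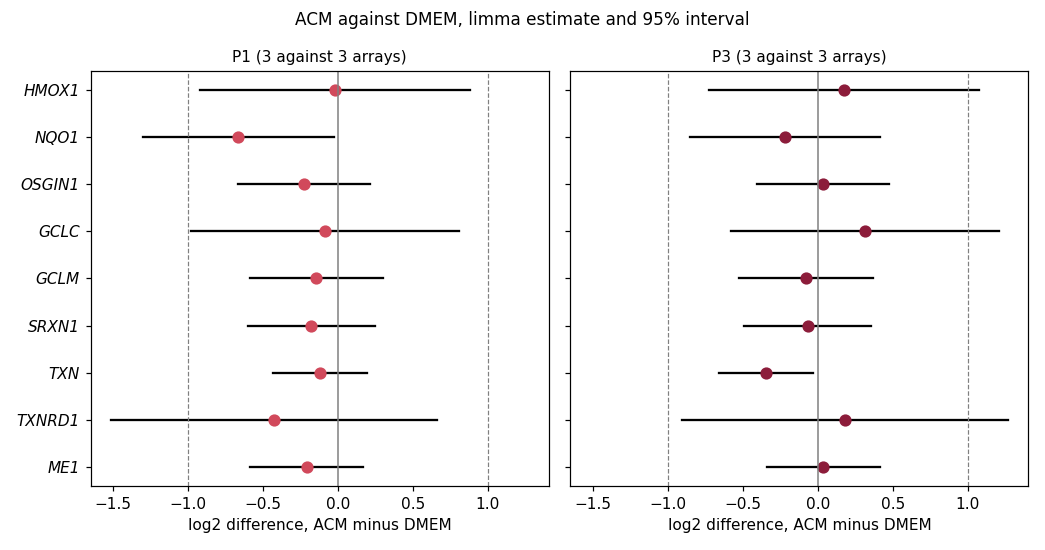
The log2 difference between ACM and DMEM of each gene at P1 (left) and P3 (right), as limma's estimate from 3 against 3 arrays with its 95% interval; dashed lines mark 2-fold. At P1 the interval of NQO1 alone does not reach 0, from −1.30 to −0.03, and at P3 that of TXN alone, from −0.66 to −0.03.

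GCLC (chromosome 6, 53497341 to 53545101) and GCLM (chromosome 1, 93885199 to 93909430) code for the catalytic and the modifier subunit of glutamate-cysteine ligase, which makes the first and limiting step of glutathione synthesis. GCLC stood at −1.22, −1.42 and −1.14 in P1 ACM and at −1.65, −1.60 and −0.25 in P1 DMEM. The 3 ACM arrays lay within the range of DMEM, where replicate 3 was far above the rest. The difference was −0.09 (95% interval −0.98 to 0.80, limma adjusted p = 0.942) and 0.37 without that array. GCLM stood at 3.96, 4.26 and 4.19 in P1 ACM and at 4.23, 4.32 and 4.28 in P1 DMEM, the tightest DMEM group of the members, with an SD of 0.045. Its difference was −0.15 (−0.59 to 0.30, adjusted p = 0.770). At P3 GCLC differed by 0.31 (limma adjusted p = 0.850) and GCLM by −0.08 (adjusted p = 0.929). The GCLC spread at P3 came from DMEM, at −1.44, −2.49 and −1.09, against −1.21, −1.30 and −1.56 in ACM. P3 DMEM replicate 2 was the lowest of 12 arrays for GCLC and, at 4.88, the highest for GCLM. That array was also the lowest for 15.5% and the highest for 21.8% of all genes, the largest share of highest levels on any array.

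SRXN1 (chromosome 20, 646615 to 653200) codes for sulfiredoxin, which repairs overoxidised peroxiredoxins. It stood at 2.28, 2.23 and 2.04 in P1 ACM and at 2.14, 2.24 and 2.69 in P1 DMEM, a difference of −0.18 (95% interval −0.60 to 0.24, limma adjusted p = 0.681). Without P1 DMEM replicate 3, the highest array, it was −0.01. At P3 the difference was −0.07 (adjusted p = 0.936).

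TXN (chromosome 9, 110243810 to 110256507) codes for thioredoxin, the small protein that reduces disulfides, and TXNRD1 (chromosome 12, 104215779 to 104350307) for the reductase that recharges it with NADPH. At P1 TXN stood at 4.69, 4.75 and 4.50 in ACM and at 4.87, 4.62 and 4.83 in DMEM, with overlap and a difference of −0.12 (limma adjusted p = 0.710). At P3 it stood at 4.77, 4.77 and 4.82 in ACM and at 5.05, 5.17 and 5.17 in DMEM. All P3 ACM arrays were below all P3 DMEM arrays, by 1.27-fold, and the difference of −0.35 had an unadjusted p of 0.0338 and an adjusted p = 0.692. After quantile normalization it was −0.10, and it was 0.06 under the labels of the table.

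TXNRD1 stood at 0.29, 0.90 and 0.51 in P1 ACM and at 0.75, 0.98 and 1.25 in P1 DMEM, a difference of −0.42 (95% interval −1.51 to 0.66, limma adjusted p = 0.711). The wide interval belongs to P3, since all groups share an estimate of the spread. There, 1 array of each medium was far below the others, at 0.68, 0.33 and −0.80 in ACM and at 0.49, −1.32 and 0.51 in DMEM. The P3 difference was 0.18 (adjusted p = 0.933). TXNRD1 had the largest range of the members over the 12 arrays, 5.95-fold, against 1.57-fold for SRXN1 and 1.59-fold for TXN.

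ME1 (chromosome 6, 83210402 to 83431051) codes for the malic enzyme of the cytosol, a source of NADPH for the reductases above. It stood at −1.16, −1.13 and −1.37 in P1 ACM and at −0.90, −1.06 and −1.07 in P1 DMEM. The groups did not overlap, yet the difference was small, −0.21 (95% interval −0.59 to 0.17, limma adjusted p = 0.554). At P3 the levels were −0.98, −0.90 and −0.51 in ACM and −0.96, −0.66 and −0.89 in DMEM, a difference of 0.04 (adjusted p = 0.962). Under the labels of the table the P3 difference was 0.52 and the P1 difference 0.23.

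At P3, then, none of the 9 genes passed the thresholds of the study in limma (0 of 9, against 1.73% of all genes) or in the methods' t-test. TXN was the 1 gene at the unadjusted p (7.27% of all genes) and the 1 gene whose arrays did not overlap (9.78%). In sign 5 genes were higher (50.4% of all genes) and 4 lower (49.6%), with a median of 0.03 against 0.0029 over all genes. The difference between the passages in the effect of ACM, tested as an interaction in limma, had 0 of 9 genes past the thresholds (6.86% of all genes) and 0 at the unadjusted p (8.24%). It was higher at P3 than at P1 in 8 of the 9, all except TXN, where 31.6% of all genes were higher, with a median of −0.17. This count is not separate from the signs at P1, since the P1 difference is part of it. As given above, those signs changed with P1 DMEM replicate 3, the scaling and slide as a block.

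The comparison of passages within a medium gave the largest difference of any member in the comparisons made. In DMEM, TXNRD1 was 2.14-fold lower at P3 than at P1 (95% interval of the log2 difference −2.19 to −0.01, unadjusted limma p of 0.0476, adjusted p = 0.571), past the thresholds of the study (1 of 9 genes, against 1.72% of all genes in either direction and 0.582% in this one). The 3 P3 DMEM arrays were all below the 3 P1 DMEM arrays. Without P3 DMEM replicate 2, the array at −1.32, the difference was −0.50. At the unadjusted p the other members that changed in DMEM were NQO1, which fell by 0.66 (limma adjusted p = 0.571), and TXN, which rose by 0.36 (adjusted p = 0.571), so that 3 of 9 did, against 8.13% of all genes. Without P3 DMEM replicate 2 the NQO1 difference was −0.36. P3 and P1 did not overlap in 2 of them, TXN and TXNRD1 (19.0% of all genes). In ACM none passed the thresholds (0 of 9, against 7.51% of all genes). There ME1 rose from P1 to P3 by 0.42 (unadjusted limma p of 0.0307, reached by 13.7% of all genes, and adjusted p = 0.371), and by 0.28 without P3 ACM replicate 3. ME1 and TXN (2 of 9) had no overlap (6.81% of all genes). The P1 and P3 DMEM arrays share slide 3 through 1 P1 array, P1 DMEM replicate 3. Within that slide the 3 P3 DMEM arrays had a mean TXNRD1 level 1.36 below it, and a mean NQO1 level 0.95 below it. That 1 array had the highest level of the 12 for both genes. Without it the difference between P3 and P1 in DMEM was −0.97 for TXNRD1 (unadjusted limma p of 0.121). For NQO1 it was then −0.52 (unadjusted limma p of 0.137).

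**Figure D3:**
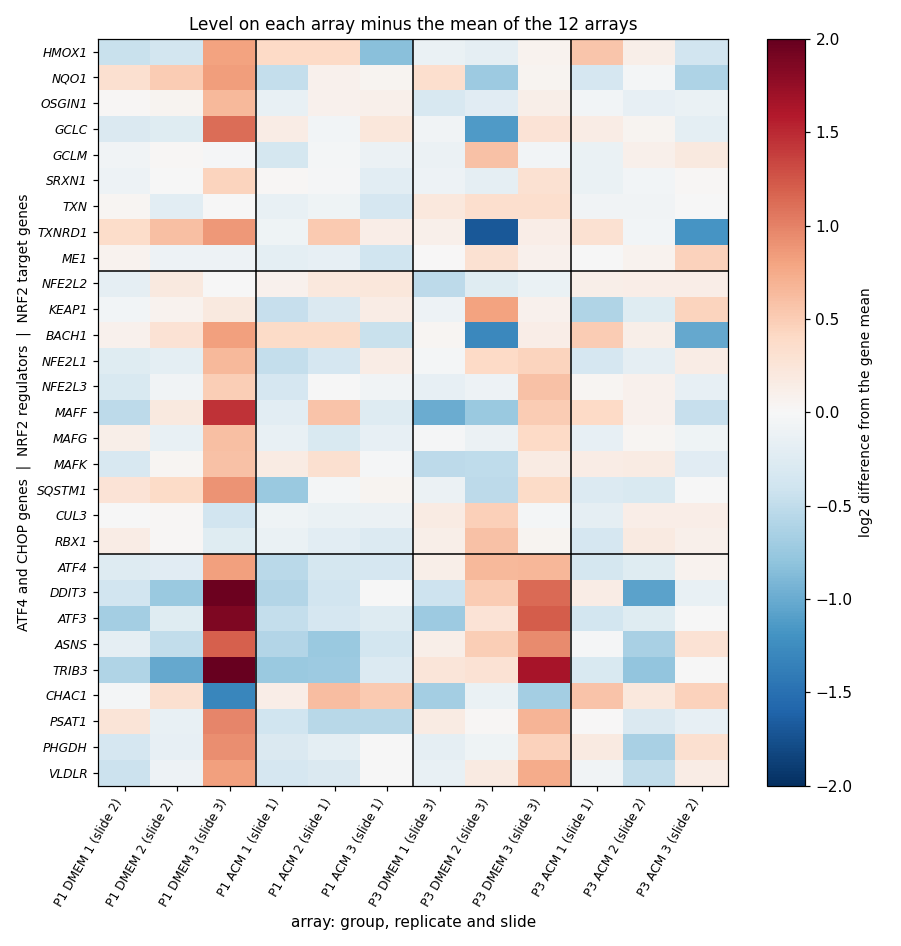
The level of each of the 9 genes, the 11 regulators of the pathway and 9 genes of the ATF4 and CHOP response on each array, minus the gene's mean over the 12 arrays, as a log2 difference in colour; the scale ends at 2 either way, and columns give group, replicate and slide. The column of P1 DMEM replicate 3 is red in most rows, and 6 of the members and 8 of the ATF4 and CHOP genes have their highest level there, while CHAC1 has its lowest.

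P1 DMEM replicate 3 stood out after the values were seen, and is described without a test. It had the highest level of the 12 arrays in 6 of the 9 genes (HMOX1, NQO1, OSGIN1, GCLC, SRXN1 and TXNRD1), while 7.44% of all genes had their highest level there. After quantile normalization these were also 6 of 9, against 8.21%. The excess over the mean of the other 2 P1 DMEM arrays was 1.38 for GCLC, 2.60-fold, and 1.21 for HMOX1, 2.32-fold. It was 0.61 for OSGIN1, 0.49 for SRXN1, 0.43 for NQO1 and 0.39 for TXNRD1, against 0.0039 for GCLM, 0.08 for TXN and −0.09 for ME1. The same array was highest for 6 of the 11 regulators, NFE2L1, BACH1, MAFF, MAFG, MAFK and SQSTM1, and for 8 of 9 genes of the ATF4 and CHOP list, which respond to amino acid shortage and stress of the endoplasmic reticulum. The other gene of that list, CHAC1, went the other way and had its lowest level of the 12 arrays there. It stood at 0.15 against 1.59 in the mean of the other 2 P1 DMEM arrays, 2.71-fold lower. NFE2L2 itself was not raised there, at −0.75 against −0.72 in the mean of the other P1 DMEM arrays. The lists of other NRF2 targets given below did not share the pattern. The array was highest for 1 of 11 genes of glutathione and thioredoxin and 1 of 15 of detoxification and export. It was highest for 0 of 5 of NADPH supply and 1 of 7 of haem and iron. Of 17 other antioxidant enzymes, 1 had its highest level there and 5 their lowest. Without that array the P1 differences of the other members were −0.52 for NQO1, −0.29 for TXNRD1, −0.14 for GCLM, −0.096 for TXN and −0.24 for ME1, beside the values given above for HMOX1, OSGIN1, GCLC and SRXN1. The cause of its levels was not tested. Among the lowest levels, 4 of 9 genes were lowest on P1 ACM replicate 3 (4.38% of all genes) and 3 of 9 on P3 DMEM replicate 2 (15.5%), where TXNRD1, GCLC and NQO1 were low and GCLM was high.

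The regulators had no change past the thresholds. NFE2L2, the gene of NRF2 (chromosome 2, 177230303 to 177264727), stood at −0.65, −0.53 and −0.51 in P1 ACM and at −0.91, −0.54 and −0.75 in P1 DMEM, a difference of 0.17 (limma adjusted p = 0.625). At P3 it was higher in all ACM arrays, at −0.63, −0.60 and −0.60, than in all DMEM arrays, at −1.26, −0.98 and −0.87, by 0.43 or 1.35-fold (unadjusted limma p of 0.0210, adjusted p = 0.678), where the labels of the table gave −0.19. KEAP1 (chromosome 19, 10486125 to 10503356) differed by −0.27 at P1 (limma adjusted p = 0.699) and by −0.40 at P3 (adjusted p = 0.765). BACH1 (chromosome 21, 29298922 to 29361894) differed by −0.28 at P1 and 0.24 at P3, with its second probe at 0.18 and −0.07, so its direction differed between the probes at both passages. Of all 11 regulators, 0 passed the thresholds of the study at P1 or at P3, and 1 at each passage had an unadjusted p of 0.05 or less (24.0% of all genes at P1 and 7.27% at P3), with medians of −0.27 and −0.13.

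Other targets of NRF2 were taken from lists written with earlier results of these data known. Over all genes, 13.5% rose and 0.0989% fell past the thresholds at P1. Of 11 genes of glutathione and thioredoxin, 1 fell, SLC7A11, the cystine importer that supplies cysteine for glutathione. It stood at −1.58, −1.09 and −0.997 in ACM and at −0.32, −0.91 and 1.40 in DMEM, with no overlap but with 1 DMEM array far above the others. The difference was −1.28 (unadjusted limma p of 0.0298, adjusted p = 0.164) and −0.61 without P1 DMEM replicate 3, and neither without that array nor without P1 ACM replicate 1 was it past the thresholds. Of 15 genes of detoxification and export, 2 rose, a share near that of all genes, AKR1C3 by 1.01 (limma adjusted p = 0.121, no overlap) and AKR1C1 by 1.20 (adjusted p = 0.125, with overlap). Neither stayed past the thresholds without P1 ACM replicate 1 or without P1 DMEM replicate 1 or 2. These aldo-keto reductases are close paralogs whose probes may read each other's transcripts, and under the labels of the table they differed by −0.76 and −0.73. A second probe of AKR1C1 differed by 1.31 at P1 (unadjusted limma p of 0.00096, adjusted p = 0.103) and by 0.70 at P3 (adjusted p = 0.699). None of 5 genes of NADPH supply, 7 of haem and iron, 17 other antioxidant enzymes or 7 heat shock genes passed at P1 (0 in each list), and at P3 none in any of these lists or in those above. Their medians at P1 ran from −0.26 for NADPH supply to 0.10 for detoxification and export. A further list held 7 metallothioneins, which bind metals and are also induced by oxidants, and the zinc exporter SLC30A1. By their brightest kept probe all 8 genes were lower in sign in P1 ACM, against 36.1% of all genes. Second probes of MT1H and MT1X differed by 0.040 and −0.30. Past the thresholds 2 genes fell, MT1M by 1.29 and MT1F by 1.06. P1 ACM replicate 3 had the lowest level of the 12 arrays in 6 of the 8, and without it MT1M differed by −0.63 and MT1F by −0.87, neither past the thresholds. MT1M was also not past them without P1 DMEM replicate 1 or 2, nor MT1F without P1 ACM replicate 1 or P1 DMEM replicate 2 or 3. Both overlapped between the groups, both are paralogs as well, and under the labels of the table they differed by 0.47 and 0.0089. The median of the list was −0.80 at P1 and 0.37 at P3.

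The genes most like HMOX1 over the 12 arrays, among 15515 genes with a probe well above background on all of them, were TRAF1 (Pearson r of 0.93), RIPK2 (0.90) and IL15RA (0.90). Those most like NQO1 were SOX9 (0.95), NKIRAS2 (0.95) and PI4K2A (0.94). No member was among them. The r of NQO1 with TXNRD1 was 0.83, and that of HMOX1 with NQO1 was 0.12. These are descriptions over 12 arrays of 4 groups that share slides and a scaling step.

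**Figure D4:**
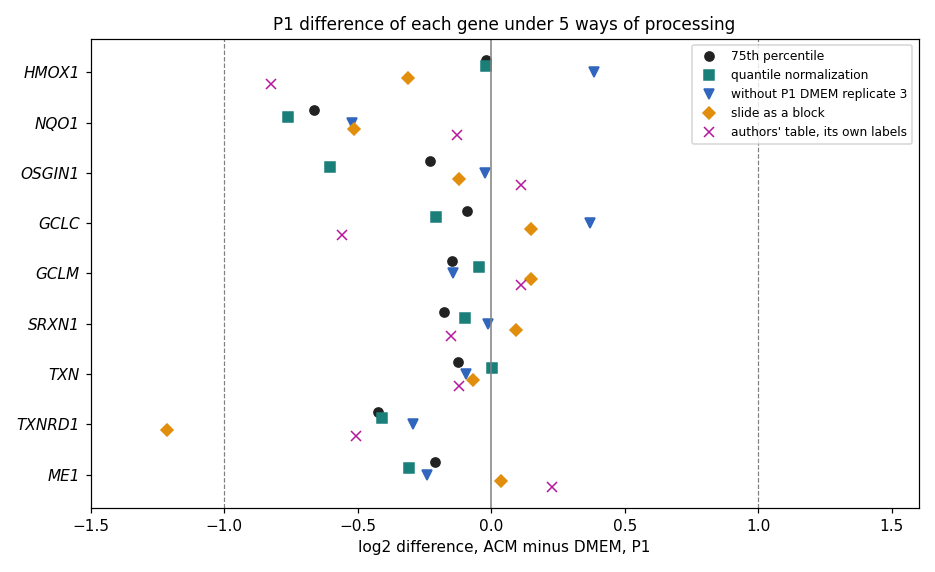
The P1 log2 difference between ACM and DMEM of each gene under 5 ways of processing: the 75th percentile of the array as used above, quantile normalization, without P1 DMEM replicate 3, slide as a block, and the authors' table under its own labels; dashed lines mark 2-fold. NQO1 and TXNRD1 lie below 0 under all 5, and for HMOX1 the points run from −0.82 to 0.38.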

How the data were processed

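The study measured RNA of Daoy cells on 12 single-colour Agilent arrays. Medium, passage and replicate number were read from the sample labels. The authors deposited the scanner output of Agilent Feature Extraction 11.0.1.1, whose intensity is background-corrected and not normalized between arrays, and a table of log2 values of 30569 probes that the authors had normalized further, used here only as an alternative.

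Control spots and outlier-flagged spots were dropped and repeated spots averaged, and each array's log2 intensity was centred on its 75th percentile. A probe entered if all arrays of at least 1 group had it well above background, which kept 31073 of 34127. RefSeq accessions of GRCh38.p14 named 25771 probes. A gene's kept probe of highest mean signal stood for it. The 12 arrays were fitted together with 4 group means in limma 3.58.1 under R 4.3.3. Tests were two-sided, and Benjamini-Hochberg adjustment ran over the kept probes. The script was tested on simulated data, and the number of arrays limits the precision.

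The members, lists and rules were chosen with earlier results of these data known. The genes named are the members, NFE2L2, KEAP1 and BACH1, list genes past the thresholds of the study (over 2-fold, unadjusted p of 0.05 or less) without overlap, and the 3 genes most like HMOX1 and NQO1. AKR1C1, MT1M, MT1F, MT1H, MT1X, SLC30A1, SQSTM1, the cell type markers given singly and what is said of P1 DMEM replicate 3 were chosen after values were seen. Same-numbered P1 arrays deviated from their group means together (r of 0.43, 0.19 and 0.27 over probes) and were treated as pairs in the replicate block. P3 arrays did not do so throughout (0.23, −0.19 and 0.06). The labels give no shared day. Alternatives were quantile normalization, normexp (offset 50), the authors' table, looser and stricter filters on dim probes, fits of the compared arrays alone, trend and robust eBayes, a replicate block, fixed and random slide blocks, the methods' t-test, averaged probes and leaving out each array. Figures were drawn with matplotlib 3.10.9.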

Additional observations from a re-analysis of the deposited data

How the results depend on the processing

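The number of members past the thresholds stayed at 0 at P1 under all alternatives, arrays left out included. With slide as a block it was 1 at P3 (GCLC, 1.62, against 2.70% of all genes) and 2 for the difference between passages (GCLC and HMOX1, 1.47 each, against 2.83%). For P3 against P1 in DMEM it was 1, and 0 under the table, only the arrays compared, the methods' t-test and the replicate block, and 0 to 1 with each array left out. The replicate block also gave NQO1 in DMEM an unadjusted limma p of 0.0631 and TXNRD1 one of 0.0711, while TXN and NFE2L2 at P3 kept theirs (0.0396 and 0.0134). Slide-block values at P1 rest on the single array P3 ACM replicate 1, and those at P3 on P1 DMEM replicate 3, which alone ties slide 3 to the others and was high in GCLC and HMOX1. The unadjusted p of NQO1 at P1 rose above 0.05 without P1 ACM replicate 1 or 3, P1 DMEM replicate 2 or 3, or P3 DMEM replicate 3, that of TXN at P3 without P3 ACM replicate 1 or 2 or P3 DMEM replicate 2 or 3, and that of NFE2L2 at P3 without P3 DMEM replicate 1. So did that of TXNRD1 in DMEM without each of 8 of the 12 arrays, that of NQO1 in DMEM without P1 ACM replicate 2 or 3, P1 DMEM replicate 2 or 3 or P3 DMEM replicate 2, that of TXN in DMEM without P1 DMEM replicate 2 or P3 DMEM replicate 2 or 3, and that of ME1 in ACM without P1 or P3 ACM replicate 3. The cause of these changes was not tested, except that left-out arrays mean fewer samples.

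Log2 differences changed sign as follows. At P1, slide block: GCLC 0.15, GCLM 0.15, SRXN1 0.091, ME1 0.036 and KEAP1 0.50. At P1, table: GCLM 0.11, OSGIN1 0.11, ME1 0.23, KEAP1 0.28, AKR1C3 −0.76, AKR1C1 −0.73, MT1M 0.47 and MT1F 0.0089. At P1, quantile normalization: TXN 0.0036. At P3, slide block: NQO1 0.21, GCLM 0.023, SRXN1 0.46 and KEAP1 0.028. At P3, table: NQO1 0.032, GCLC −0.22, GCLM 0.10, TXNRD1 −0.72, TXN 0.060, NFE2L2 −0.19, KEAP1 0.26 and BACH1 −0.55. At P3, quantile normalization: GCLM 0.14, SRXN1 0.0020, OSGIN1 −0.12 and ME1 −0.016. At P3 normexp gave OSGIN1 −0.044 and slide as a random block gave SRXN1 0.11. In DMEM the table gave TXN −0.085. With each array left out, differences that changed sign ranged at P1 from −0.24 to 0.39 (HMOX1) and −0.33 to 0.37 (GCLC). At P3 they ranged from −0.055 to 0.42 (HMOX1), −0.52 to 0.0021 (NQO1), −0.094 to 0.61 (GCLC), −0.21 to 0.14 (GCLM), −0.43 to 0.61 (TXNRD1), −0.16 to 0.083 (SRXN1), −0.056 to 0.16 (OSGIN1), −0.11 to 0.13 (ME1) and −0.22 to 0.68 (BACH1).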
